A study of Mus musculus with 8 samples.

Results

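The unfolded protein response and secretory genes described here are 35 mouse genes, taken by symbol from a gene table of 39017 genes. They comprise 9 chaperones and cofactors of the endoplasmic reticulum (ER), 6 lectins and disulfide isomerases, 6 genes of translocation and signal peptide cleavage, 7 genes of ER-associated decay, and 7 stress sensors and their effectors. All 35 were found once in the table and all passed the filter on low values, a mean of at least 10 normalized counts, which 16250 genes passed. They were measured by RNA-seq in iGBs, C57BL6/J splenic B cells grown for 4 days on 40LB cells, a fibroblast feeder line that expresses CD40L and BAFF, with 1 ng per mL of IL-4. The 4 Prmt5-null libraries came from Prmt5 F/F Cγ1-cre mice and the 4 control libraries from Cγ1-cre mice, 1 mouse per library, so that both groups carried the Cre. Cre is driven from the Cγ1 locus of the immunoglobulin heavy chain, so Prmt5 is lost only once B cells have been activated, and a library can hold cells that still have it. The paper describes the depletion of Prmt5 as complete at day 4. The study states that its mice were of both sexes and 2 to 4 months old, and which library came from which sex is not given in the sources used here. A normalized count is the number of reads counted on a gene divided by a size factor of its library, and is not divided by gene length.

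The ER folds membrane and secreted proteins, among them the immunoglobulins of B cells. When unfolded protein accumulates there, the sensors Ire1α (Ern1), Atf6 and Perk (Eif2ak3) signal to the nucleus through spliced Xbp1, cleaved Atf6 and translated Atf4, and raise the genes for chaperones, for translocation into the ER and for the decay of misfolded protein. B cells that turn into plasma cells expand this machinery, for which they require Xbp1. These relations are textbook knowledge and were not measured here.

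The genotype labels and the cell type were checked first. Prmt5 had 1538 ± 436 normalized counts in Prmt5-null and 11774 ± 908 in control iGBs (SD, n = 4 each), and libraries held 36731721 to 50366174 reads on genes. The B cell markers Cd79b, Ms4a1 and Pax5 were expressed in all 8 libraries and did not pass the test between genotypes (adjusted p 0.491, 0.618 and 0.2, limma). The list of B cell markers also held genes that differed. Cd79a, the other signaling chain of the B cell receptor, fell by 0.74 on the log2 scale (limma adjusted p = 0.000327), complement receptor Cr2 rose by 1.03 in the higher of its 2 rows (0.00137), and Ebf1 fell by 0.52 in the lower of its 2 rows (0.0338) but not in the higher (0.642). Of the T cell markers, Cd3e had 0 counts in every library and Cd3d at most 3.57 normalized counts, whereas Lck had 304 to 780.3 and Cd5 127 to 306, both of which B cells can express. Lck fell by 0.94 (adjusted p = 0.000852), and the summed T cell list was at 569.8 to 719.7 in Prmt5-null and 895 to 1018 in control libraries. Of the myeloid markers, S100a8 and S100a9 had 0 counts in every library and Cd68 had 425 to 658, with a summed list of 543 to 726 and 602 to 655. The part of other cell types in the values of the 35 genes was not tested. In bulk RNA, fewer cells that express a gene and less RNA per cell cannot be told apart.

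The ER genes were lower in Prmt5-null than in control iGBs. At an adjusted p below 0.05 (limma on log2(normalized count + 1), adjusted over all 16250 genes), 24 of the 35 genes fell and 0 rose, where 7.33% of all genes tested fell and 6.51% rose. The 35 genes were chosen by function with earlier results of these data known, so this count is a description of the set. At an unadjusted p below 0.05 the counts were 29 lower and 1 higher. edgeR on the recovered reads gave 23 lower and 0 higher, and DESeq2 26 lower and 0 higher. The decreases were moderate in size, with a median log2 difference of -0.46 over the 35 genes against 0.0024 over all genes tested, which corresponds to 0.728 times the control level. Of the 24, 8 also fell by at least 1.5-fold, where 2.99% of all genes fell and 3.49% rose by that rule. In 26 of the 35 genes the 4 Prmt5-null libraries were all under the lowest control, a pattern that 10.2% of all genes showed, and in 1 gene, Sec11c, they were all over the highest control, as in 9.67% of all genes. All 9 chaperones and cofactors, 3 of 6 lectins and isomerases, 3 of 6 translocation genes, 6 of 7 decay genes and 3 of 7 sensors and effectors fell.

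**Figure D1:**
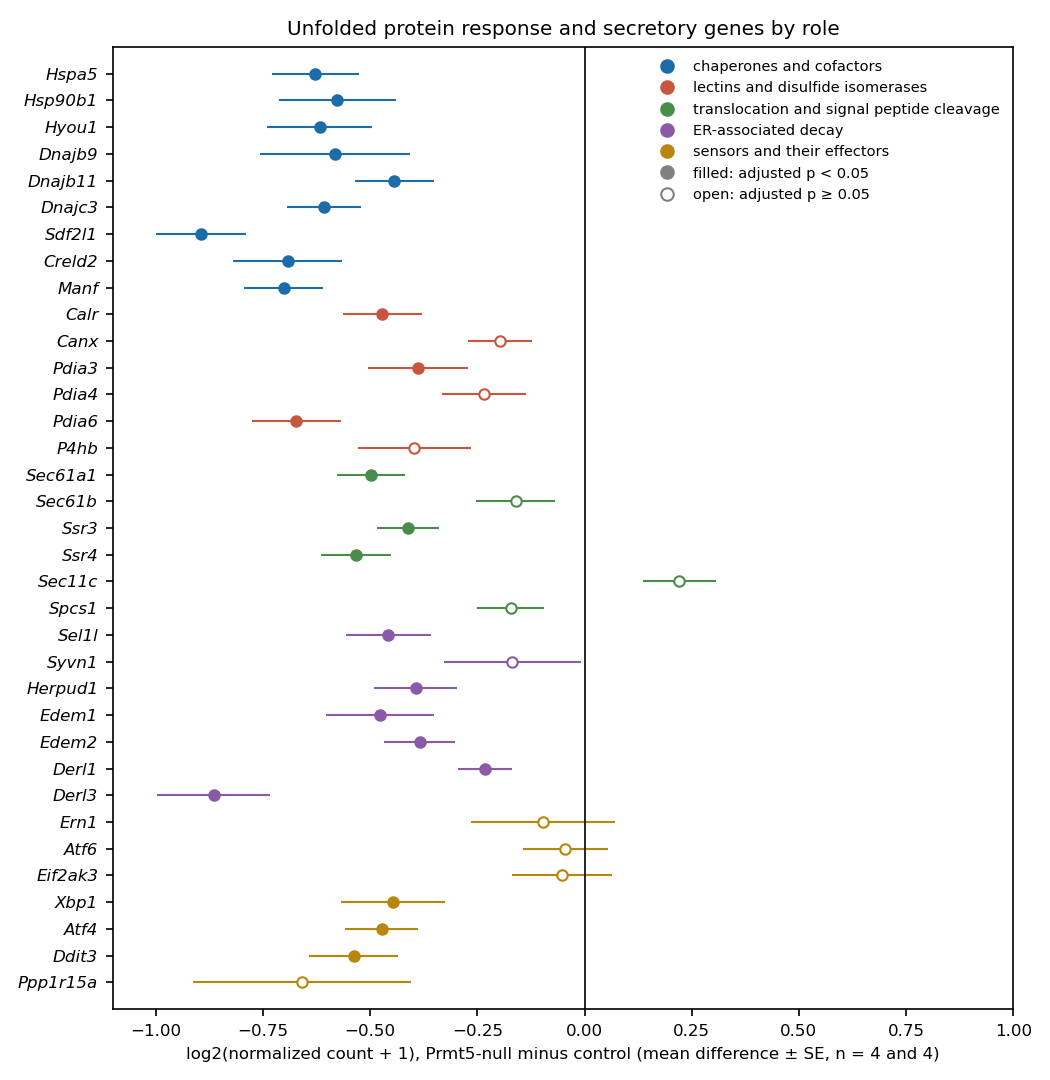
The difference in log2(normalized count + 1) between Prmt5-null and control iGBs (x axis, mean ± SE, 4 libraries each) for the 35 genes, coloured by role, with filled points at an adjusted p below 0.05. All 9 chaperones and cofactors are filled and lie left of 0, and the sensors Ern1, Atf6 and Eif2ak3 are open and lie near 0.

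Hspa5 encodes BiP, the Hsp70 chaperone of the ER, which also holds the stress sensors inactive. It lies at chr2:34771970-34777547 on the plus strand of GRCm38. In the Prmt5-null libraries PRMT5-10617, PRMT5-10618, PRMT5-10770 and PRMT5-10771, Hspa5 had 46752, 55663, 56947 and 55604 normalized counts, and in the control libraries CTRL-10370, CTRL-10596, CTRL-10597 and CTRL-10650 it had 77452, 91084, 74323 and 89514. The groups did not overlap, PRMT5-10617 was the lowest, and values below are in the same order of libraries. Hspa5 fell by 0.63 ± 0.10 on the log2 scale (SE, limma adjusted p = 0.00209), so that the Prmt5-null mean was 0.647 times the control mean. The 250 bases before its RefSeq start (chr2:34771840-34772089 +, GRCm38.p6) are shown because they hold the ER stress element, the sequence through which the response acts on chaperone genes, with its fixed letters in capitals. The GENCODE gene begins upstream of the RefSeq start, so part of this stretch lies within the GENCODE gene.
Hspa5 promoter: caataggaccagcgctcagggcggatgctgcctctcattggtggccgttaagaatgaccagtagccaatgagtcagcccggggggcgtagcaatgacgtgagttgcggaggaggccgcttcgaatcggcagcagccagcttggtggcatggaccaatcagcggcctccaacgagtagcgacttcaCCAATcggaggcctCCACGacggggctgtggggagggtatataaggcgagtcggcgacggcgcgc

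Hsp90b1 encodes Grp94, the Hsp90 chaperone of the ER. It had 53089, 59599, 53633 and 68288 normalized counts in Prmt5-null and 72831, 103906, 75165 and 100659.8 in control iGBs, which did not overlap, and fell by 0.58 ± 0.14 (log2, SE, limma adjusted p = 0.0156). The control libraries were spread widely for this gene, with CTRL-10650 and CTRL-10596 well above CTRL-10370 and CTRL-10597. Hsp90b1 shares 415 exonic bases with the opposite-strand gene 1810014B01Rik, and the strand setting of the counting is not given in the sources used here. On the same strand, Hsp90b1 shares 133 exonic bases with Gm25745 and 84 with Gm15344. Hyou1, the large Hsp70-related protein that exchanges nucleotide on BiP, had 11264, 12128, 10765 and 12698 in Prmt5-null and 14023, 21219.8, 16931 and 20561 in control iGBs and fell by 0.62 ± 0.12 (adjusted p = 0.00632).

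The J-domain cochaperones, which stimulate the ATPase of BiP, fell together. Dnajb11 had 7056, 7916, 7158 and 8133 normalized counts in Prmt5-null and 8866, 11509.9, 9904 and 11001 in control iGBs, a difference of -0.44 ± 0.092 (log2, SE, limma adjusted p = 0.00824). For Dnajc3, also known as p58IPK, an inhibitor of Perk, the values were 5579, 6272, 5687 and 6135 against 7984, 9947, 8455 and 9797, and it fell by 0.61 ± 0.087 (adjusted p = 0.000956). The groups were apart for both genes. Dnajb9 was less even, with 599, 1231, 877 and 1032 in Prmt5-null and 1357, 1345, 1459 and 1263 in control iGBs. It was lowest in PRMT5-10617 and close to the controls in PRMT5-10618, and fell by 0.58 ± 0.18 with an adjusted p of 0.0466. The Dnajb9 call was lost when any library other than PRMT5-10618 was left out (adjusted p 0.0645 to 0.107, limma), and in edgeR (adjusted p = 0.0609). Without PRMT5-10617 its difference was -0.38. The Hsp90b1 call was lost without PRMT5-10617 (limma adjusted p = 0.0513), CTRL-10596 (0.0532) or CTRL-10650 (0.051).

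The largest decrease of the 35 genes in this fit was that of Sdf2l1, a partner of the J-domain proteins that keeps unfolded clients soluble. Sdf2l1 had 2426, 2179.6, 2889 and 2346 normalized counts in Prmt5-null and 4167, 5058, 4089 and 4961 in control iGBs, and fell by 0.89 ± 0.10 (log2, SE, limma adjusted p = 0.000295) to 0.538 times the control mean. It ranked 320 among the 16250 genes tested, counted from the most negative difference. Manf, a secreted ER stress protein that binds BiP, had 5721, 6284, 6019 and 6367 against 8892, 10662, 8942 and 11379 and fell by 0.70 ± 0.091 (adjusted p = 0.000538). Creld2, an ER protein with disulfide isomerase activity, had 3024, 3144, 2912 and 3276 against 3989.7, 6209.6, 4361 and 5718 and fell by 0.69 ± 0.13 (adjusted p = 0.00428). In all 3 the groups were apart, and for Creld2 the Prmt5-null libraries were close together (coefficient of variation 5.08%) while the controls varied (21%). Manf shares 166 exonic bases with 4930524O07Rik and 146 with Dcaf1, both on the opposite strand.

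**Figure D2:**
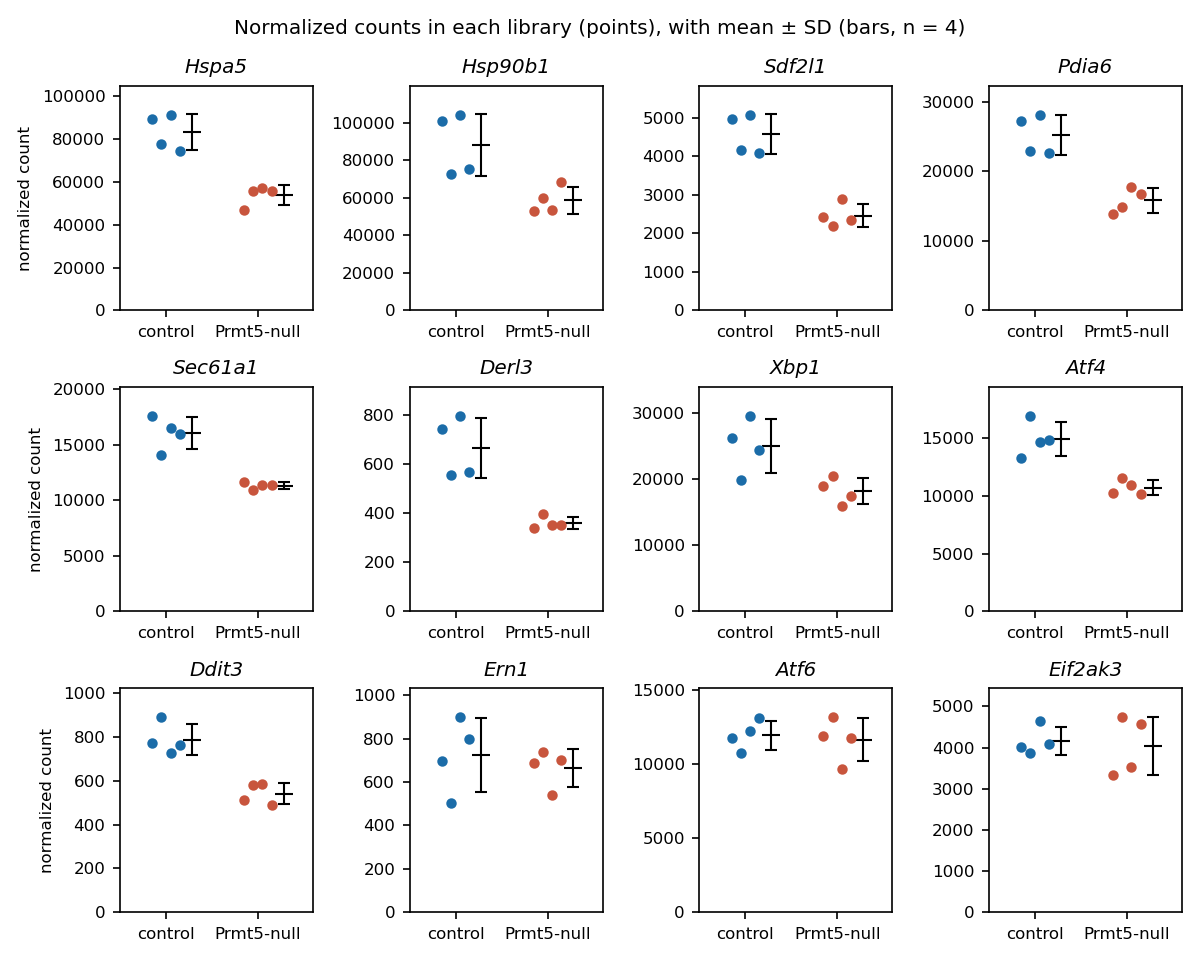
Normalized counts (y axis, from 0) of 12 of the genes in each control and Prmt5-null library (points), with the mean ± SD of each genotype (bars, n = 4). Hspa5, Hsp90b1, Sdf2l1, Pdia6, Sec61a1, Derl3, Atf4 and Ddit3 do not overlap between genotypes, Xbp1 overlaps in 1 library, and Ern1, Atf6 and Eif2ak3 overlap.

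The lectin chaperones calreticulin (Calr) and calnexin (Canx) hold glycoproteins while they fold. Calr had 50025, 50628, 57219 and 52751 normalized counts in Prmt5-null and 68781, 80018, 66309 and 77363 in control iGBs and fell by 0.47 ± 0.092 (log2, SE, limma adjusted p = 0.00604). Canx, its membrane-bound relative, averaged 41717 ± 809 in Prmt5-null and 47876 ± 2287 in control iGBs (SD, n = 4 each), a difference of -0.20 ± 0.075 that did not pass the test (adjusted p = 0.103), although all 4 Prmt5-null libraries were below the controls. DESeq2 put the Canx difference past the threshold (adjusted p = 0.0179), as did limma under quantile normalization (0.0432).

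Among the protein disulfide isomerases, which form and rearrange disulfide bonds, Pdia6 had the largest difference in this fit. It had 13880.4, 14859, 17818 and 16731 normalized counts in Prmt5-null and 22899, 28064, 22626 and 27237 in control iGBs, which were apart, and fell by 0.67 ± 0.10 (log2, SE, limma adjusted p = 0.0015). Pdia3, the isomerase that works with the lectins, had 7993, 8299, 9667 and 9781 against 10779.7, 11392, 10158 and 14742 and fell by 0.39 ± 0.12 (adjusted p = 0.046), with CTRL-10650 the highest by a wide margin. The Pdia3 call was lost when any library other than PRMT5-10770 or CTRL-10597 was left out (adjusted p 0.0612 to 0.122), and without CTRL-10650 its difference was -0.27. P4hb, the classical PDI, averaged 22814 ± 4822 and 29554 ± 1636 (SD), a difference of -0.40 ± 0.13 with an adjusted p of 0.0665. It passed in DESeq2 (adjusted p = 0.0429) and, in limma, without PRMT5-10770 (0.0135) and under quantile normalization (0.0206). Pdia4 averaged 26227 ± 1146 and 31037 ± 4180.5 (SD), with a difference of -0.23 ± 0.098 (adjusted p = 0.137). For P4hb and Pdia4, too, all 4 Prmt5-null libraries lay below the controls.

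Nascent secretory proteins enter the ER through the Sec61 channel, assisted by the translocon-associated proteins (Ssr genes), and lose their signal peptide to the signal peptidase (Sec11c, Spcs1). Sec61a1, the pore subunit, had 11611, 10914, 11346 and 11388 normalized counts in Prmt5-null and 14061, 16518, 15989 and 17544 in control iGBs and fell by 0.50 ± 0.079 (log2, SE, limma adjusted p = 0.00181). Ssr3 had 11609, 12518, 11741 and 11661 against 15370.3, 14663, 16625 and 16612 and fell by 0.41 ± 0.072 (adjusted p = 0.00326). Ssr4, with 3829, 3592, 4282 and 3628 against 5699, 5930.1, 5044 and 5489, fell by 0.53 ± 0.082 (adjusted p = 0.00144). All 3 were apart between genotypes. The small subunits did not pass the test: Sec61b averaged 4360.1 ± 515 in Prmt5-null and 4859 ± 329 in control iGBs (SD), a difference of -0.16 ± 0.091, and Spcs1 3257 ± 269.8 and 3665 ± 160.5, a difference of -0.17 ± 0.077 (adjusted p = 0.268 and 0.162). Spcs1 passed without PRMT5-10770 (adjusted p = 0.0434) and shares 252 exonic bases with Glt8d1 on the opposite strand. Sec11c, a catalytic subunit of the peptidase, was the exception in direction, with 13518, 13735, 16707 and 13280.2 in Prmt5-null and 12567, 12677, 11626 and 12063 in control iGBs. Every Prmt5-null library was above every control, with PRMT5-10770 the highest, but the difference of 0.22 ± 0.085 (95% interval 0.035 to 0.41) did not pass (adjusted p = 0.108, limma). Sec11c also had a retained intron with higher inclusion in Prmt5-null iGBs, described below, and the part of its reads in the gene count was not tested.

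ER-associated decay recognizes misfolded proteins, moves them back through the membrane and ubiquitinates them. Derl3, a derlin of the export channel found mainly in secretory cells, had 342, 396, 352 and 353 normalized counts in Prmt5-null and 555, 795, 568 and 742 in control iGBs. The groups were apart and Derl3 fell by 0.87 ± 0.13 (log2, SE, limma adjusted p = 0.00145) to 0.542 times the control mean. Its relative Derl1 stood at 2306 normalized counts per kb of exonic length in control iGBs, against 334 per kb for Derl3. Derl1 had normalized counts of 6554, 6569, 6705 and 6301 against 7344, 7743, 7802 and 7808 and a difference of -0.23 ± 0.064 (adjusted p = 0.0318). The mannosidase-like proteins Edem1 and Edem2 mark glycoproteins for decay. Edem1 had 16428, 18235, 14344 and 18596 against 18731, 27273, 22146 and 26466 and fell by 0.48 ± 0.13 (adjusted p = 0.0265). Edem2, with 2374, 2297, 2384 and 2353 against 2857, 3330.1, 2774 and 3370.2, fell by 0.38 ± 0.082 (adjusted p = 0.00927), and its Prmt5-null libraries were the most alike of the 35 genes (coefficient of variation 1.65%).

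Sel1l and Syvn1 (Hrd1) form the ubiquitin ligase of this pathway, and Herpud1 belongs to the same complex. Sel1l had 6535, 7896, 6809 and 7822 normalized counts in Prmt5-null and 8490.2, 10633, 9758 and 11107 in control iGBs and fell by 0.46 ± 0.099 (log2, SE, limma adjusted p = 0.00991). Herpud1 had 10742, 13450.0, 11635 and 12647 against 14917, 17971, 14088 and 16785 and fell by 0.39 ± 0.098 (adjusted p = 0.0199). Both were apart between genotypes, whereas Syvn1, with means of 4461 ± 907 and 4999.7 ± 940.2 (SD, n = 4 each), overlapped and did not pass (-0.17 ± 0.16, 95% interval -0.52 to 0.18, adjusted p = 0.525). Without PRMT5-10617, CTRL-10596 or CTRL-10650 the calls of Herpud1 and Edem1 were lost (adjusted p 0.0592 to 0.0655 and 0.0656 to 0.0832), and Derl1 kept its call, of the single libraries left out, without PRMT5-10770 or CTRL-10370 (otherwise 0.0525 to 0.105).

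The RNAs of the 3 sensors did not pass the test, while 3 of the 4 effectors fell. Ern1, the kinase and nuclease that splices Xbp1, had 689, 736, 539 and 701 normalized counts in Prmt5-null and 501, 898, 799.9 and 696 in control iGBs, with a difference of -0.097 ± 0.17 (log2, SE, 95% interval -0.46 to 0.27, limma adjusted p = 0.749). Atf6, the membrane-bound transcription factor, had 11895, 13137, 9650.2 and 11753 against 10713, 12223, 13059.6 and 11729, a difference of -0.045 ± 0.10 (95% interval -0.26 to 0.17, adjusted p = 0.807). Eif2ak3, the kinase Perk, had 3343, 4737, 3541 and 4568 against 3880.0, 4649, 4081 and 4026, a difference of -0.053 ± 0.12 (95% interval -0.31 to 0.20, adjusted p = 0.805). In all 3 genes the genotypes overlapped, and leaving out 1 library moved the difference across 0 in each (without PRMT5-10770 or CTRL-10596 for Ern1, without PRMT5-10770 or CTRL-10597 for Atf6, and without PRMT5-10617, PRMT5-10770 or CTRL-10596 for Eif2ak3). These are RNA levels, and the activity of the sensors, which depends on protein modification, was not measured.

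Atf4, the transcription factor whose translation rises when Perk or its related kinases act, had 10297, 11529.7, 10928 and 10209 normalized counts in Prmt5-null and 16919.9, 14649, 14886 and 13339.5 in control iGBs. The groups were apart and Atf4 fell by 0.47 ± 0.084 (log2, SE, limma adjusted p = 0.00368). Ddit3 encodes Chop, a target of Atf4, and had 513, 579, 585 and 487 against 888, 726, 759.6 and 771, apart, with a difference of -0.54 ± 0.10 (adjusted p = 0.00548). For Atf4 and Ddit3 CTRL-10370 was the highest library, unlike for most chaperones, where it was among the lower controls. Ppp1r15a (Gadd34), which restores translation by dephosphorylating eIF2α, had 1093, 2922, 1811 and 2643 against 3182, 3135, 3829 and 2491. It was the most variable of the 35 genes in Prmt5-null iGBs (coefficient of variation 39.2%), and its difference of -0.66 ± 0.25 did not pass (adjusted p = 0.107) in this fit. It passed without PRMT5-10618 (0.0324), and with the experiment as a block its adjusted p ranged from 0.0188 to 0.141 over the 18 possible placements of libraries.

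Xbp1, the transcription factor of the Ire1α branch, had 18976, 20483, 15856 and 17424 normalized counts in Prmt5-null and 19757, 29449, 24299 and 26237 in control iGBs. The highest Prmt5-null library, PRMT5-10618, lay above the lowest control, CTRL-10370. Xbp1 fell by 0.45 ± 0.12 (log2, SE, limma adjusted p = 0.0305), a call that was lost when any library other than PRMT5-10618 or CTRL-10370 was left out (adjusted p 0.0508 to 0.0905). The gene count does not separate the spliced from the unspliced form of Xbp1, which was not analysed here.

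Levels of different genes can be compared only per length. Per kb of exonic length, with all annotated exons of a gene joined, Calr, Hsp90b1 and Hspa5 had the highest control levels of the 35 genes, at 25388, 21860.2 and 19648 normalized counts per kb. The control libraries of neighbours in this order overlapped, while those of Hspa5 lay above the next gene, Pdia4 (12937 per kb). In Prmt5-null iGBs the same 3 genes had 18283, 14547 and 12708 normalized counts per kb. At the low end were Ddit3 (459), Derl3 (334) and Ern1 (88.5) in control iGBs. The control libraries of these 3 genes did not overlap each other, while those of Ddit3 overlapped with the next higher gene, Dnajb9 (532). Sequence annotated from minor isoforms lengthens some genes and lowers their level on this scale.

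The ER stress element, bound by Atf6 and Xbp1 together with NF-Y, reads CCAAT, 9 free bases and CCACG. It was searched on both strands in RefSeq promoters of GRCm38.p6, from 250 bases before to 50 after the start, which were at hand for 29 of the 35 genes and not for Hyou1, Manf, Sec61a1, Sec11c, Derl1 and Atf6. The element was present in 9 of the 29 (31%), where 37 of 27025 genes with a promoter (0.137%) held it. The 35 genes were chosen as genes of the response that acts through this element, so the larger share is not an independent result. Each stretch is given with 10 bases on either side, 5′ to 3′ along the gene, with the fixed letters of the element in capitals (CGTGG and ATTGG where it lies in antisense), so that the shared ends and the free middle can be seen. Positions count from the RefSeq start, with negative numbers before it.
Hspa5 (chr2:34772015-34772053 +, first capital at -65 from the start): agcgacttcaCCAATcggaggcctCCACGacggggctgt
Pdia6 (chr12:17266481-17266519 +, -98): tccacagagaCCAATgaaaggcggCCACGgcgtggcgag
Dnajc3 (chr14:118937817-118937855 +, -105): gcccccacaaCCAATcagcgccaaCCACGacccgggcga
Hsp90b1, sense (chr10:86705628-86705666 -, -212): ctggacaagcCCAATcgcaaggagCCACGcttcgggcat
Hsp90b1, antisense (chr10:86705523-86705561 -, -107): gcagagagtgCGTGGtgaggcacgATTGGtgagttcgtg
Creld2 (chr15:88819510-88819548 +, -126): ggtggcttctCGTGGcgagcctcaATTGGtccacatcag
Derl3 (chr10:75893232-75893270 +, -156): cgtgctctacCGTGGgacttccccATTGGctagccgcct
Calr (chr8:84847065-84847103 -, -162): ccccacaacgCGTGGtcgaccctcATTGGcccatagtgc
Canx (chr11:50325790-50325828 -, -145): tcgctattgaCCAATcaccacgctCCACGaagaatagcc
Syvn1 (chr19:6046522-6046560 +, -44): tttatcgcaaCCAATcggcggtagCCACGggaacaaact

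Of these 9 genes, 7 fell and Canx and Syvn1 did not pass the test, and their median log2 difference was -0.61. Over all 35 genes, with or without the element, 24 fell and the median was -0.46. Another 10 genes tested also had the element, and 0 of them passed the adjusted test in limma, edgeR or DESeq2. At an unadjusted p below 0.05, 0 of the 10 were lower and 1 higher in limma, and 1 lower and 1 higher in edgeR and in DESeq2. The median difference of these 10 genes was -0.42, with 8 below 0. Xlr3a, Xlr3b and Xlr3c had the most negative values (-1.28, -1.56 and -1.29), on means of only 32, 145 and 22.8 normalized counts. Hnrnpa3 (0.36) and Zfp57 (0.59) were above 0. A related arrangement, the ER stress element II, with ATTGG and CCACG 1 base apart, was searched after the first counts were seen and was found in Herpud1 and Dnajb11, both of which fell, of 12 genes with a promoter (0.0444%). Another 6 genes tested held this arrangement, of which 1 fell and 0 rose in limma, with a median difference of -0.080. No promoter of the 29 held both arrangements.
Herpud1 (chr8:94386368-94386396 +, -52): cgggcgctgATTGGgCCACGttggacact
Dnajb11 (chr16:22857843-22857871 +, 8): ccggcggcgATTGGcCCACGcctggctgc

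The UPR element TGACGTGG was in 0 of the 29 promoters and in 0.714% of all genes with a promoter. The ATF4 type element TGATGNAA was in 1, Herpud1, and in 4.51% of all genes. A match describes letters within the window and does not show that a factor binds there, and letters that are absent from the window say nothing about the factor.

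**Figure D3:**
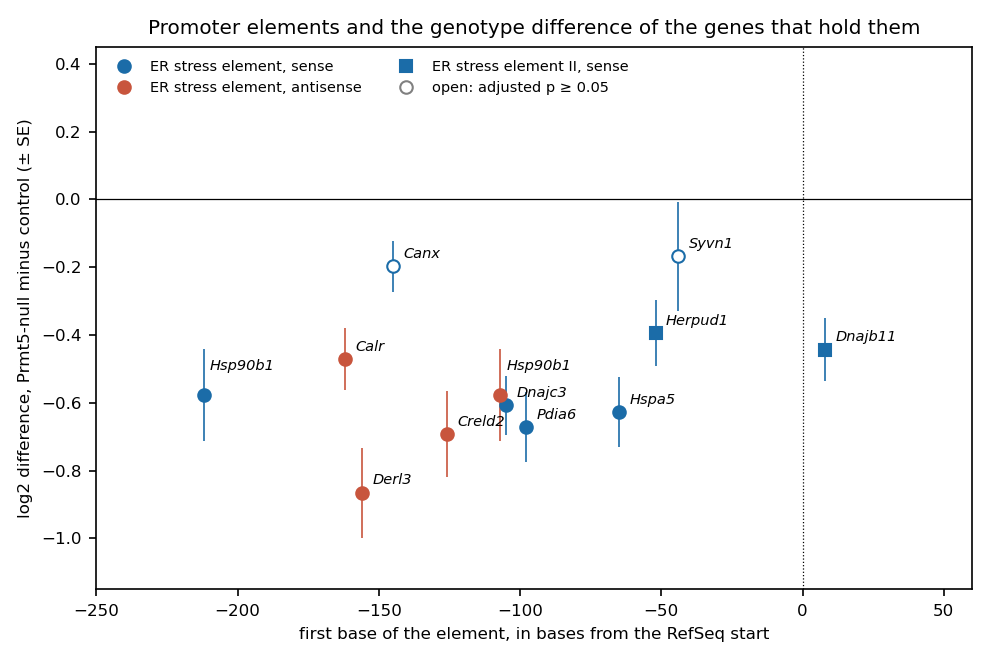
Position of each ER stress element (circles) and ER stress element II (squares) relative to the RefSeq start (x axis, bases to the first base of the element) and the log2 difference of its gene between Prmt5-null and control iGBs (y axis, ± SE), with open points at an adjusted p of 0.05 or above. The elements lie between -212 and 8 bases from the start, and the open points are Canx and Syvn1.

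The libraries were then compared over all 35 genes. Relative to the mean of the controls, the median gene stood at -0.53, -0.37, -0.45 and -0.38 on the log2 scale in Prmt5-null libraries PRMT5-10617, PRMT5-10618, PRMT5-10770 and PRMT5-10771. In control libraries CTRL-10370, CTRL-10596, CTRL-10597 and CTRL-10650 it stood at -0.11, 0.12, -0.073 and 0.086. Every Prmt5-null library was below every control, and in each at least 30 of the 35 genes were under the control mean. Library PRMT5-10617 was the lowest of its group for 17 genes, and CTRL-10596 was the highest of its group for 20. Without CTRL-10596, 17 genes fell and 5 of them by at least 1.5-fold, in place of 24 and 8. The libraries came from 2 experiments with 2 of each genotype, but no label ties a library to its experiment. With the experiment as a block in each of the 18 possible placements, 20 to 26 genes fell and 0 rose.

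**Figure D4:**
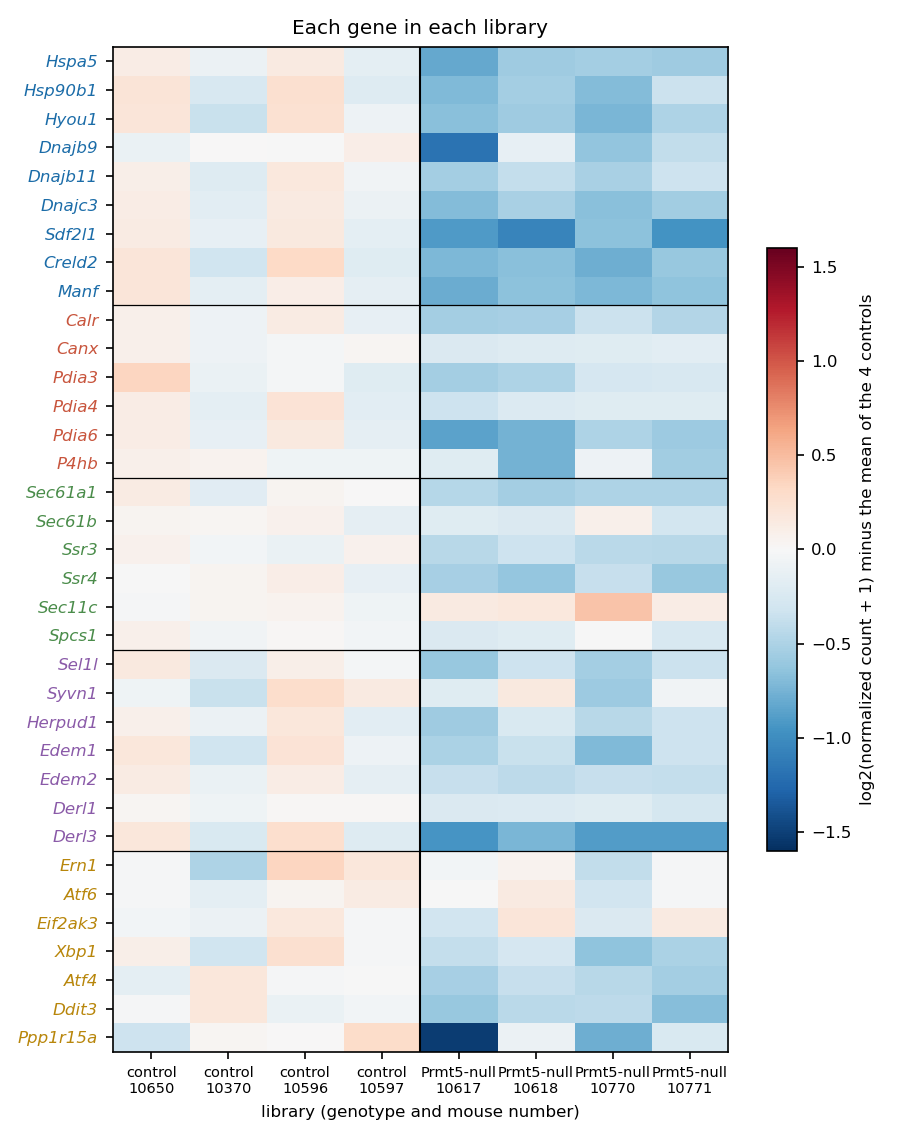
Log2(normalized count + 1) of each of the 35 genes in each library minus the mean of the 4 controls, with control libraries left of the vertical line and Prmt5-null libraries right of it, and rows grouped by role (label colours as in the plot of differences). The Prmt5-null columns are mostly blue, with Sec11c red in all 4, and Ppp1r15a is at -1.51 in PRMT5-10617.

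Splicing was described only for genes that appear in the deposited tables of differing events. Of the 35 genes, 2 had such an event (5.71%), where 11.4% of 13300 genes with a mean above 50 had one. Sec11c, on chromosome 18, had a retained intron whose inclusion level was 0.77 to 0.81 over the 4 control values and 0.888 to 0.959 over the 4 Prmt5-null values of the authors, which did not overlap, on at least 1377 junction and intron reads per value. It also had a skipped exon with inclusion of 0.847 to 1 in control and 0.683 to 1 in Prmt5-null iGBs, but on as few as 5 reads. Ssr4, on the X chromosome, had a retained intron included at 0.649 to 0.86 in control and 0.805 to 0.939 in Prmt5-null iGBs, overlapping values on at least 106 reads each. Events entered these tables because they differed, so their ranges are a description and were not tested again. Of the 3 events, 2 had at least 20 reads in every library.

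Further genes of the secretory pathway were counted from lists drawn up by function, also with earlier results of these data known. Of 19 other ER folding genes tested, 7 fell and 1 rose, with a median log2 difference of -0.25. Txndc5, a disulfide isomerase, had 9246 ± 939 normalized counts in Prmt5-null and 16258 ± 2773 in control iGBs (SD, n = 4 each) and fell by 0.80 ± 0.12 (log2, SE, limma adjusted p = 0.00119). The prolyl isomerase Fkbp2 fell by 0.64 ± 0.10 (adjusted p = 0.00189) and the oxidase Ero1lb fell by 0.47 ± 0.11 (0.0149), while Cnpy3, a Grp94 cofactor for Toll-like receptors, rose by 0.46 ± 0.063 (0.00072).

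Of 26 other genes of translocation and glycosylation, 10 fell and 0 rose (limma, also 0 in edgeR and DESeq2 and 0 at an unadjusted p below 0.05), with a median of -0.21. The 4 with the largest differences were Ssr1 (-0.62 ± 0.084, adjusted p = 0.000648), Spcs2 (-0.52 ± 0.070, 0.000674), the signal recognition particle receptor Srpr (-0.46 ± 0.081, 0.00341) and the oligosaccharyltransferase subunit Rpn1 (-0.45 ± 0.083, 0.00448). Ssr1 belongs to the translocon-associated complex with Ssr3 and Ssr4, and Spcs2 to the signal peptidase with Sec11c and Spcs1. The count of 10 was 5 without PRMT5-10771 or CTRL-10650 and 6 without CTRL-10596.

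Of 17 other genes of ER-associated decay, 3 fell, namely the ubiquitin ligase Rnf5 (-1.02 ± 0.16), the lectin Os9 (-0.53 ± 0.084) and Vimp (-0.30 ± 0.077), with limma adjusted p of 0.00185, 0.00175 and 0.0231, and 0 rose. At an unadjusted p below 0.05, 8 were lower and 1 higher, and DESeq2 called 7 lower and 0 higher, edgeR 4 and 0. The median of the 17 was -0.12, and without PRMT5-10618 the count was 6. Of 20 genes of COPII and ER-Golgi transport, 4 fell and 0 rose (7 and 0 at an unadjusted p below 0.05, 4 and 0 in edgeR, 5 and 0 in DESeq2), with a median of -0.18. These were the coat subunit Sec24d (495 ± 87.6 normalized counts in Prmt5-null and 1007 ± 251 in control iGBs, SD), and, as log2 differences, the cargo receptor Lman1 (-0.62 ± 0.074), Surf4 (-0.52 ± 0.079) and Preb (-0.50 ± 0.077), with adjusted p of 0.00453, 0.000327, 0.00129 and 0.0014.

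Of 27 tested target genes of Atf4 and Chop, many of which serve amino acid synthesis and transport, 12 fell and 1 rose, with a median of -0.35. Pycr1, an enzyme of proline synthesis, had 106 ± 12.7 normalized counts in Prmt5-null and 369 ± 86.4 in control iGBs (SD, n = 4 each) and fell by 1.77 ± 0.17 (log2, SE, limma adjusted p = 0.000123). The aminotransferase Gpt2 fell by 1.48 ± 0.16 (adjusted p = 0.000166) and the glutathione-degrading Chac1 fell by 1.22 ± 0.13 (0.000177). Stc2 fell by 1.80 ± 0.53 (0.0423) on only 48.9 ± 29.9 normalized counts in control iGBs. The gene that rose, named after its value was seen, was Sesn2, at 0.66 (adjusted p = 0.00101), which is also a target of p53. The count of 12 was 7 without PRMT5-10617, PRMT5-10618 or PRMT5-10771 or without CTRL-10370 or CTRL-10650.

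Of 17 other stress sensors and effectors, 2 fell and 1 rose, with a median of 0.0066. Map3k5 (Ask1), a kinase that can act below Ire1α, rose by 0.34 ± 0.080 (log2, SE, limma adjusted p = 0.0153), Atf6b fell by 0.25 ± 0.075 (0.044) and Ppp1r15b fell by 0.23 ± 0.068 (0.044). The count of 2 dropped to 0 or 1 with any single library left out, and Map3k5 lost its call without PRMT5-10771.

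Plasma cells secrete immunoglobulin in bulk and depend on the ER genes. Of 11 plasma cell genes tested, 2 fell and 1 rose. Those that fell were the receptor Tnfrsf13b (-0.40 ± 0.073) and Prdm1, which encodes the plasma cell regulator Blimp1 (-0.48 ± 0.14, log2, SE, limma adjusted p = 0.0042 and 0.0428). Prdm1 had 851 ± 146 normalized counts in Prmt5-null and 1187 ± 178 in control iGBs (SD). Cd93 rose by 0.54 ± 0.14 (adjusted p = 0.0205), and the median of the list was -0.15, with 6 of the 11 below 0. Irf4 and Sdc1, named after their values were seen, were above 0 (0.19 and 0.16) and did not pass (limma adjusted p = 0.134 and 0.588). The paper reports Prdm1 and Irf4 raised in Prmt5-deficient B cells grown with LPS and IL-4, a different culture. The count of 2 was 1 without PRMT5-10617 or PRMT5-10770 or without CTRL-10596, CTRL-10597 or CTRL-10650, and Cd93 did not pass without PRMT5-10617 or PRMT5-10771. Of 9 immunoglobulin constant genes, Ighg2b rose by 1.49 ± 0.19 (0.000481) and Ighm by 0.46 ± 0.11 (0.0156), and 0 fell in limma. At an unadjusted p below 0.05, 4 of the 9 were higher and 1 lower, and 1 was called lower in edgeR and in DESeq2. Ighe had 50654, 60590, 38549 and 62259 normalized counts in Prmt5-null and 54546, 115168, 76917 and 113816 in control iGBs, which overlapped. Its difference of -0.73 did not pass (limma adjusted p = 0.0546). Igkc, the main light chain gene, differed by -0.096 (adjusted p = 0.621).

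**Figure D5:**
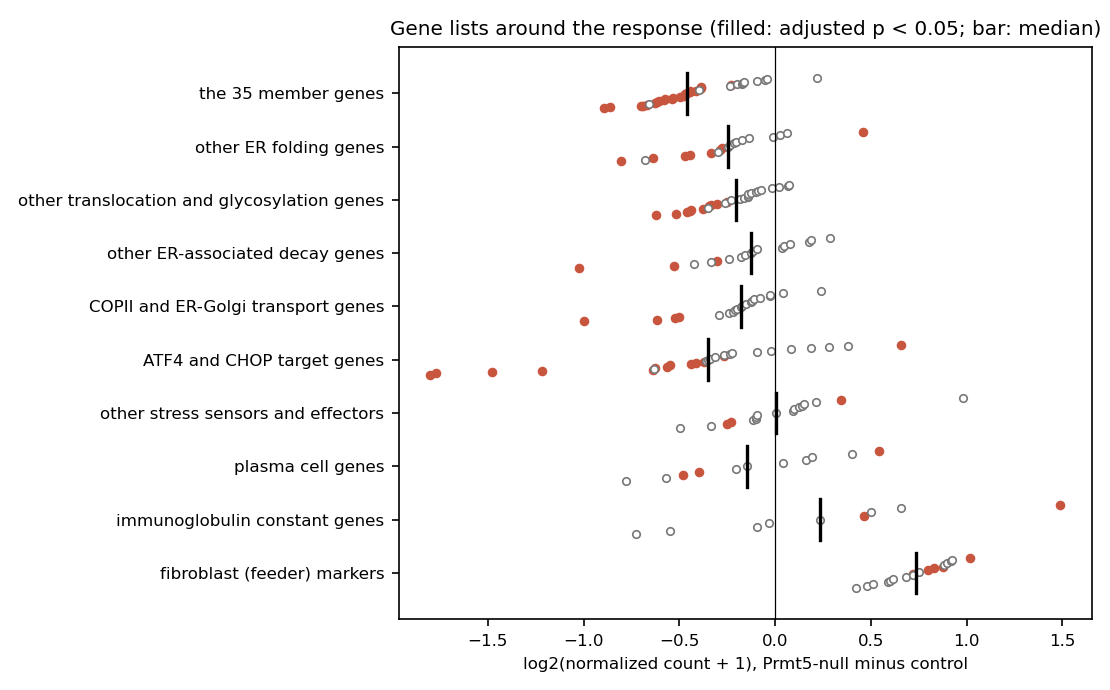
Log2 difference between Prmt5-null and control iGBs (x axis) of each gene in the set of 35 and in 9 further lists, with filled points at an adjusted p below 0.05 and a bar at the median of each list. The median is -0.46 for the 35 genes, -0.35 for Atf4 and Chop targets and 0.74 for fibroblast markers.

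Fibroblast markers, which the 40LB feeders express, were examined as well. The 18 of 20 fibroblast markers that passed the filter all had higher means in Prmt5-null iGBs, 5 of them past the threshold in limma, led by Col3a1 (rose by 1.02 ± 0.23, adjusted p = 0.0136), and 0 fell (limma, edgeR and DESeq2, and 0 lower at an unadjusted p below 0.05). Their summed level was 9913 to 19823 normalized counts in Prmt5-null and 6896 to 11771 in control libraries, ranges that overlap. Ctgf was at 0 in 6 of the 8 libraries and Lum in 1. The count of 5 ranged from 1 to 10 as single libraries were left out, at 1 without PRMT5-10617, CTRL-10370 or CTRL-10596, at 3 without PRMT5-10770 or PRMT5-10771 or CTRL-10597, and at 10 without PRMT5-10618. Fibroblasts express the ER genes as well, and the part of feeder RNA in the values of the 35 genes was not tested.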

How the data were processed

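Per the study's methods and the submitters' processing notes, the authors depleted ribosomal RNA, trimmed reads with Trimmomatic 0.32, aligned them with STAR 2.3.0e to GRCm38 (mm10), counted them on exons of Ensembl genes with featureCounts 1.4.4, and divided the counts by the size factors of DESeq2 1.14.1. The authors deposited these normalized counts, which are a signal and not raw counts. All values were whole multiples of the worth of 1 read in their library (tolerance 0.1 read), so reads were recovered, 36731721 to 50366174 per library. Splicing events were read from the deposited rMATS tables as lists of 4 inclusion levels per genotype that name no library. The p-values and FDR values in these tables were not used.

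In R 4.3.3, limma 3.58.1 was fitted (lmFit, then eBayes with its mean-variance trend) to log2(normalized count + 1) of 16250 genes with a mean of at least 10, with two-sided tests and Benjamini-Hochberg adjustment over all of them. The terms rose and fell are used at an adjusted p below 0.05. edgeR 4.0.16 and DESeq2 1.42.0 on the recovered reads were alternatives, and the fit was tested on simulated data. Other alternatives changed the pseudocount, filter, normalization, trend, thresholds and libraries, or took the experiment as a block. Gene positions and exonic lengths came from GENCODE M21 and promoters from RefSeq. The 35 genes and the other lists were chosen by function with earlier results of these data known. Every one of the 35 genes is named, and of each other list at most the 4 largest differences past the threshold, except Sesn2, Irf4, Sdc1, Ighe, Igkc and the markers that check the cell type. Of the lists, 6 symbols were absent from the table (Hm13, Jchain, Ighd, Iglc1, Iglc3 and Adgre1). The B cell list had 2 genes lower and 1 higher of 12 rows tested, the germinal center list 1 lower and 3 higher of 8, the T cell list 1 lower of 3 and the myeloid list 0 of 3 (limma, also 0 in edgeR, in DESeq2 and at an unadjusted p below 0.05). Protein features were not analysed here.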

Additional observations from a re-analysis of the deposited data

Results flagged for a closer look

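In each genotype the highest and the lowest of the 4 libraries were compared with the others for all 35 genes, 70 groups in all, by Dixon's criterion at the 95% level. A library stood apart in 4 groups, where chance gives about 1 in 20 groups, or 3.5 of 70. Hspa5 had 46752 normalized counts in PRMT5-10617, below the 55604 to 56947 of the other Prmt5-null libraries. Ssr3 had 12518 in PRMT5-10618, above 11609 to 11741 in the others. Sec11c had 16707 in PRMT5-10770, above 13280.2 to 13735 in the others. Derl1 had 7344 in CTRL-10370, below 7743 to 7808 in the other controls. These 4 values come from 4 different libraries, and Hspa5, Ssr3 and Derl1 were apart between genotypes with them included.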

How the results depend on the processing

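All 24 genes that fell stayed below 0 under each of the 19 alternatives run per gene, and 17 of the 24 stayed past the threshold under all of them. The exceptions were Derl1, Dnajb9, Edem1, Herpud1, Hsp90b1, Pdia3 and Xbp1. The number that fell was 17 to 24 when single libraries were left out, 17 at an adjusted p below 0.01, 18 without the mean-variance trend, 22 without a filter on low values and 20 to 26 with the experiment as a block. The number that fell by at least 1.5-fold was 8, ranged from 5 to 11 over single libraries left out (5 without CTRL-10596), and was 23 with a minimum of 1.2-fold. The median difference of the 35 genes ranged from -0.50 to -0.41. Genes without a call whose sign changed were the sensors, with single libraries left out: Ern1 from -0.26 to 0.018, Atf6 from -0.11 to 0.041 and Eif2ak3 from -0.13 to 0.034. The median of all genes tested moved by less than 0.1 (log2) under each scaling. Promoters cut to 150 bases before the start held the ER stress element in 7 of 29 genes. No paired analysis was possible because the genotypes share no replicate numbers in the labels.

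The number of genes past an adjusted p of 0.05 over all genes was 2249 in limma, 2274 in edgeR and 3075 in DESeq2.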
